A study of Mus musculus with 6 samples.

Results

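The leptin receptor gene Lepr and 7 genes of the receptor and signalling system it belongs to (Leprot, Il6st, Lifr, Osmr, Jak2, Stat3 and Socs3) were followed in mouse cerebral cortex. They are 8 of the 55450 genes counted. Lepr was chosen by its measured level in CPM (counts scaled to a common library size), which was lower in Setd5 heterozygous libraries, and its partners were chosen for contrast, so the genotype differences of all 8 are given as descriptions and carry no test. Polyadenylated RNA of adult cortex was sequenced in 6 libraries, 3 from mice heterozygous for Setd5, a SET-domain chromatin gene, and 3 from wild type mice. No treatment, strain, sex or exact age is given, nor which bases of Setd5 are altered or whether each library is from another animal, so the spread between libraries behind each SD, SE and p-value may be technical in part.

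Leptin is a hormone of fat cells that binds LEPR, a single-pass receptor of the cytokine receptor family. The receptor has no enzyme activity of its own: the kinase JAK2, bound to its tail, phosphorylates it, the transcription factor STAT3 docks and is phosphorylated in turn, and STAT3 switches on Socs3, whose product blocks the receptor and JAK2. The same relay serves gp130 (Il6st), the shared receptor chain for interleukin-6, leukaemia inhibitory factor, oncostatin M and ciliary neurotrophic factor, with LIFR and OSMR as its partner chains. In brain the leptin receptor is best known from hypothalamic neurons, and it is also made by cells of vessels, choroid plexus and meninges, while gp130 signalling through STAT3 is a main driver of reactive astrocytes.

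In GRCm38, Lepr (ENSMUSG00000057722.17) occupies positions 101717404 to 101815352 of chromosome 4, plus strand. Leprot, which encodes a small membrane protein that limits leptin receptors at the cell surface, lies upstream on the same strand from 101647718 to 101659364, with 58039 bases and no other protein-coding gene between them. Osmr and Lifr are neighbours on chromosome 15 too, transcribed away from each other, with 215644 bases and no protein-coding gene between them. No exon of Lepr or Leprot overlaps an exon of another gene. Stat3 shares 72 exon bases with Stat5a on the other strand, which the unstranded library kit cannot separate. Lepr has 7 annotated transcripts, which include forms with a long signalling tail and short forms, and counts per gene do not tell them apart.

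The sequences before the start sites of Lepr and Il6st are shown because these were the 2 genes whose heterozygous libraries all lay under the wild type ones, and a stretch of the Socs3 promoter because it alone held a STAT-type site. They are RefSeq promoter windows of GRCm38.p6, cut to bases outside annotated exons, with matches to the STAT motif in capitals. The Lepr stretch is chr4:101717157-101717403 on the plus strand, the Il6st stretch is chr13:112463820-112464069 on the plus strand, and the Socs3 stretch is chr11:117969502-117969530 on the minus strand.
Lepr: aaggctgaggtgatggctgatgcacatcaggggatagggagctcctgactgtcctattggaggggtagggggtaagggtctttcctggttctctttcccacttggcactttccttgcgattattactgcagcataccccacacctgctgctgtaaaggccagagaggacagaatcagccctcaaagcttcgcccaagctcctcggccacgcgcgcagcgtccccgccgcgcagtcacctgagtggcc
Il6st: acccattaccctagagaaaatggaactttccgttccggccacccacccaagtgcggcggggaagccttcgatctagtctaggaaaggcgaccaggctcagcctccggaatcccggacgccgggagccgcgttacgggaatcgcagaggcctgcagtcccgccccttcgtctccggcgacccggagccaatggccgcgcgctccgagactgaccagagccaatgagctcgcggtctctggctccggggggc
Socs3: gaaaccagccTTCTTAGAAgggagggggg
All 8 genes matched the promoter table, with 10 windows of 300 bases among them. The motif TTCNNNGAA, which reads the same on both strands, was found in 1 of these windows, that of Socs3, starting 154 bases before its RefSeq start site. The GENCODE gene begins farther out, at 117970047, so the match lies within that gene's span but outside its exons. The motif occurs in the windows of 9.55% of all genes in the table. The stricter form TTCCNGGAA, a subset of it, was in none of the 10 windows and in those of 1.35% of all genes. A match is a run of letters and not a measured binding site.

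The 3 heterozygous libraries, replicates 1 to 3 in this order here and below, had Lepr at 5.11, 3.94 and 4.21 CPM. The 3 wild type libraries had it at 7.02, 7.74 and 7.11 CPM. Every heterozygous library lay under every wild type library, and the gap between the groups was wider than the range within either. Mean levels were 4.42 ± 0.614 CPM (SD, n = 3) in heterozygous and 7.29 ± 0.393 CPM (SD, n = 3) in wild type libraries, a ratio of 60.7%. The fitted log2 difference, heterozygous minus wild type, was -0.72 with a standard error (SE) of 0.13. These values rest on 325 to 689 counts per library. The 95% exact Poisson interval of the highest heterozygous library ran from 4.66 to 5.60 CPM and that of the lowest wild type library from 6.46 to 7.60 CPM. Such intervals reflect counting alone, as amplified reads are not independent molecules. In bulk tissue fewer cells that make Lepr and less Lepr RNA per cell cannot be told apart.

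**Figure D1:**
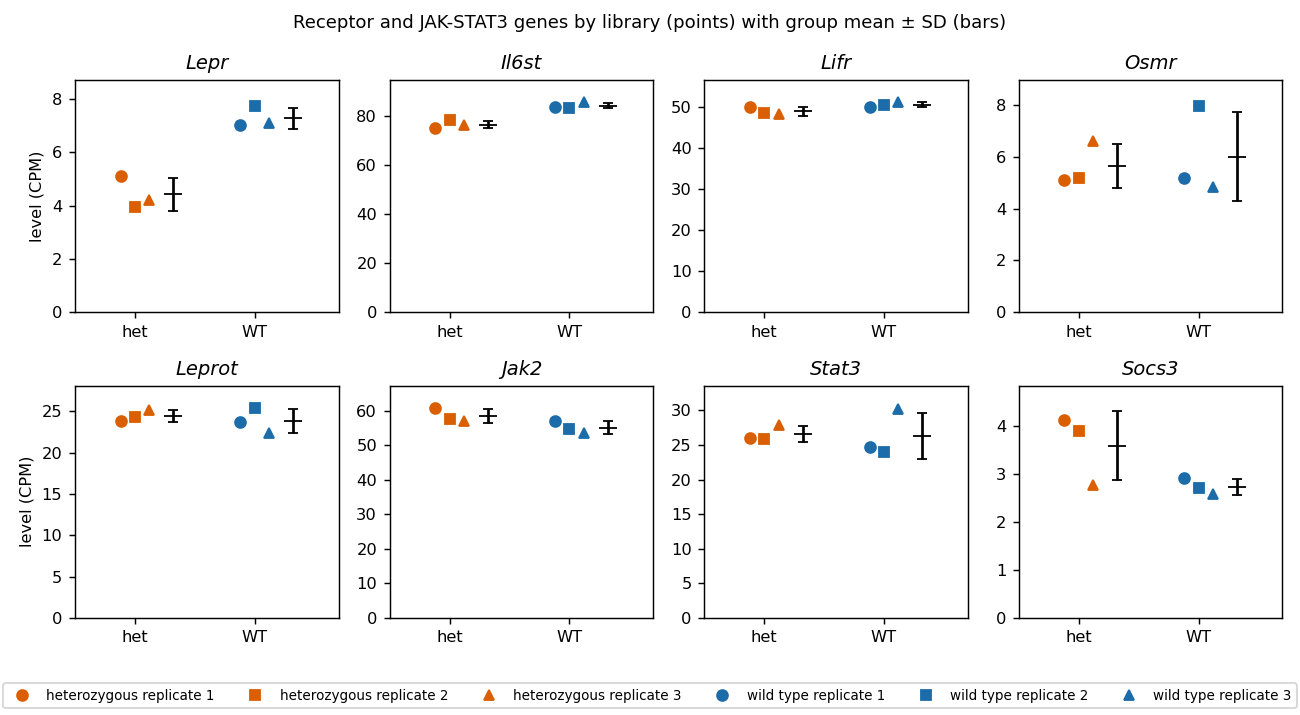
Level in CPM (vertical axis, from 0, a separate scale for each gene) of the 8 genes in each library. Points are libraries, orange for heterozygous and blue for wild type, with a symbol per replicate, and black bars are group means ± SD. Lepr and Il6st are the panels whose groups do not overlap; the Osmr panel has wild type replicate 2 far above the other wild type libraries.

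Il6st, the shared signal chain gp130, was at 75.2, 78.2 and 76.2 CPM in the heterozygous and at 83.8, 83.4 and 85.7 CPM in the wild type libraries. Its groups did not overlap either, but the difference was small. The means were 76.5 ± 1.55 and 84.3 ± 1.20 CPM (SD, n = 3 each), or 90.8% of wild type, with a log2 difference of -0.14 (SE 0.06). Lifr, the receptor for leukaemia inhibitory factor that pairs with gp130, ran from 48.2 to 50.03 CPM in heterozygous and from 49.97 to 51.3 CPM in wild type libraries. The groups met at their edges, with a log2 difference of -0.05 (SE 0.06). The ratio of Lifr to Il6st per exon length was higher in each heterozygous library, at 0.638 to 0.686, than in any wild type library, at 0.614 to 0.622. That separation largely follows from the Il6st and Lifr values just given and is no further result.

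Osmr, the oncostatin M receptor chain, varied most between wild type libraries of the 8 genes. It was at 5.10, 5.19 and 6.62 CPM in the heterozygous and at 5.19, 7.97 and 4.83 CPM in the wild type libraries. The highest value was wild type replicate 2 and the next was heterozygous replicate 3, so the groups overlapped fully. The log2 difference of -0.09 (SE 0.20) became 0.17 (SE 0.15) without wild type replicate 2. Leprot, the neighbour of Lepr, was at 23.8, 24.4 and 25.2 CPM in the heterozygous and at 23.7, 25.4 and 22.4 CPM in the wild type libraries, a log2 difference of 0.04 (SE 0.07). The ratio of Lepr to Leprot per exon length was therefore lower in every heterozygous library, with means of 0.0488 ± 0.00782 and 0.0823 ± 0.00282 (SD, n = 3 each).

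The kinase Jak2 was at 60.8, 57.7 and 56.9 CPM in the heterozygous and at 57.1, 54.8 and 53.5 CPM in the wild type libraries. Only wild type replicate 1 reached into the heterozygous range, and the log2 difference was 0.08 (SE 0.06). Stat3 was at 26.0, 25.9 and 27.9 CPM in the heterozygous and at 24.7, 24.05 and 30.2 CPM in the wild type libraries. Both its lowest and its highest value were wild type, and its log2 difference of 0.02 (SE 0.10) had no steady sign: it was 0.13 when wild type replicate 3 was left out and -0.05 when replicate 2 was.

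Socs3, the feedback inhibitor of the relay, stood on the other side from Lepr. It was at 4.11, 3.88 and 2.76 CPM in the heterozygous and at 2.91, 2.70 and 2.59 CPM in the wild type libraries. Heterozygous replicates 1 and 2 were above all other libraries, while heterozygous replicate 3 lay within the wild type range. The means were 3.58 ± 0.725 and 2.73 ± 0.165 CPM (SD, n = 3 each), from 228 to 378 counts per library. The fitted log2 difference was 0.39 (SE 0.17). The log2 difference was 0.55 (SE 0.15) without heterozygous replicate 3 and 0.28 (SE 0.19) without heterozygous replicate 1.

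In all, heterozygous libraries lay entirely below wild type for 2 of the 8 genes and entirely above for 0. Over all 27939 genes tested such separation was found for 5.85% in the lower and 5.88% in the higher direction, and Lepr was chosen for it. All 8 genes passed the filter on low counts. Their fitted differences were split 4 higher and 4 lower, with a median of -0.02, beside 0.00 over all genes tested. Between genotypes edgeR's quasi-likelihood test called 0 genes (0% of those tested) in each direction at a Benjamini-Hochberg adjusted p under 0.05, while 1628 genes (5.83%) had an unadjusted p under 0.05. By DESeq2 there were 16 calls in the higher (0.0648%) and 46 in the lower direction (0.186%), out of the 24679 genes it gave an adjusted p. Lepr kept its sign in 16 of 16 alternative fits, between -0.84 without heterozygous replicate 1 and -0.64 without heterozygous replicate 2. Its groups do not overlap and these fits reuse the same counts, so its sign was largely fixed in advance. Il6st ran from -0.16 to -0.12 and Socs3 from 0.28 to 0.55 over the same fits.

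**Figure D2:**
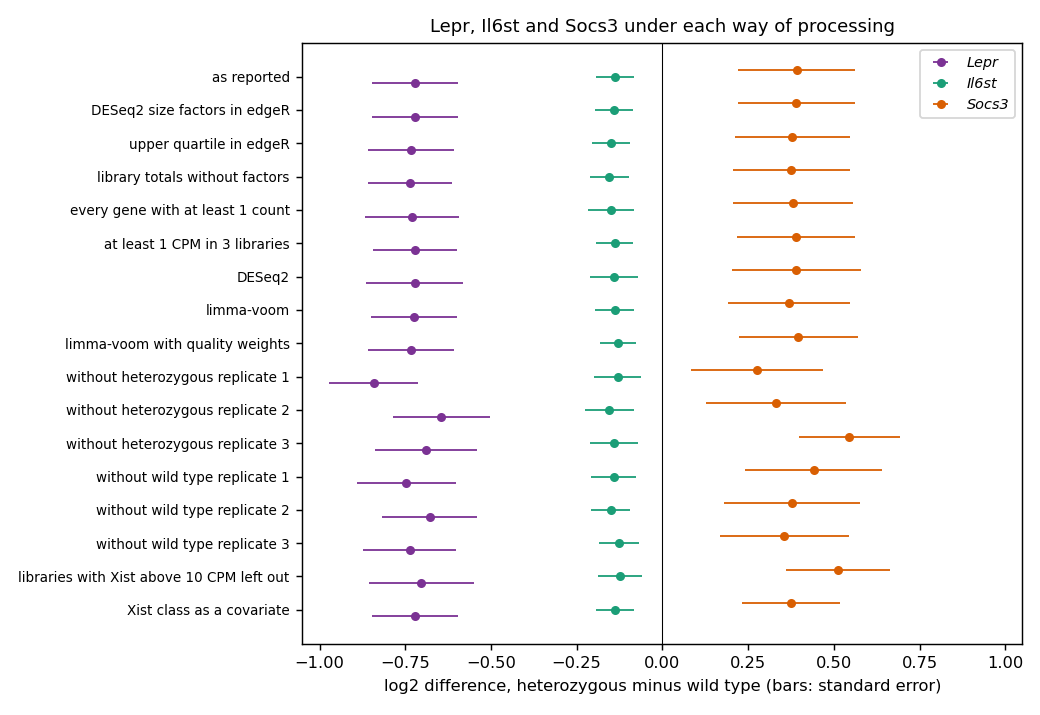
Fitted log2 difference, heterozygous minus wild type (horizontal axis), of Lepr, Il6st and Socs3 as reported and in each of 16 alternative fits (rows). Bars are standard errors. Lepr lies between -0.84 and -0.64 and Il6st close to -0.14 in every row, while Socs3 moves between 0.28 and 0.55 with the libraries left out.

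Facts of the whole set of libraries touch these values. Totals ran from 82850628 to 92860628 counts per library and overlapped between groups. Setd5 itself was at 68.7 to 75.3 CPM in the heterozygous and 97.0 to 111 CPM in wild type libraries, in the direction of the labels. Its log2 difference was -0.56 (SE 0.07), yet edgeR's test did not call it (adjusted p = 0.258). A gene that did not pass this test is therefore not shown to be unchanged. Cortical neuron markers were high in every library, with the vesicular glutamate transporter Slc17a7 at 787 to 908 CPM. The libraries did not group by genotype in a chi-square on counts averaged over genes, to which abundant genes can add most. By it the closest pairs were heterozygous replicates 1 and 2, then each of these with wild type replicate 1. Next came heterozygous replicate 3 with wild type replicate 2. Xist, which female cells express, was above 10 CPM in replicate 3 of each genotype and under 1 CPM in the other 4 libraries. Without these 2 libraries the log2 difference of Lepr was -0.70 (SE 0.15) and that of Socs3 0.51 (SE 0.15), and with Xist class as a covariate that of Lepr was -0.72 (SE 0.13).

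Levels of different genes were compared per length, as CPM per kilobase of exon (RPKM). Leprot was highest at 12.7 ± 0.576 RPKM and Jak2 next at 11.3 ± 0.502 RPKM (SD, n = 6 libraries), and their ranges over libraries overlapped. Il6st followed at 7.25 ± 0.399 RPKM, Lifr at 4.61 ± 0.11 RPKM and Stat3 at 2.78 ± 0.236 RPKM, each apart from its neighbours in this order. Socs3 at 1.09 ± 0.229 RPKM, Lepr at 0.831 ± 0.232 RPKM and Osmr at 0.48 ± 0.102 RPKM came last, and each range overlapped the next. The Lepr level per length was 0.0794 to 0.146 of the Il6st level in the same library, and 33.2% of all tested genes were at or below it, beside 73.1% for Il6st. The order of the last 3 depends on the length used: by the longest transcript Lepr was at 1.056 and Osmr at 1.0598 RPKM, less than the SD of either apart.

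**Figure D3:**
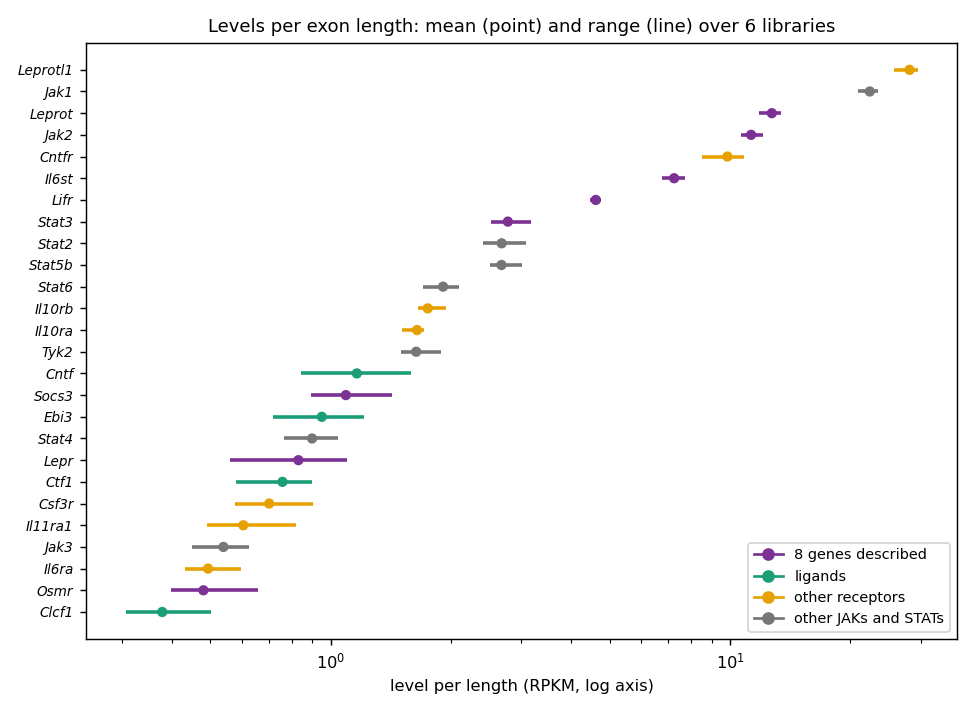
Level per kilobase of exon (RPKM, log axis) of the 8 genes and of ligands, other receptors and other JAKs and STATs with a mean of at least 0.3 RPKM, leaving out genes not reported here. Points are means over the 6 libraries and lines the range over libraries. Leprot and Jak2 stand high, Il6st, Lifr and Stat3 in the middle, and Socs3, Lepr and Osmr low, with the widest line among the 8 belonging to Lepr.

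The other genes of the pathway were taken from 5 lists of 69 genes in all. In edgeR's test 0 of the 65 genes with enough counts passed at an adjusted p under 0.05, with 32 fitted differences above 0 and 33 below, and a median of -0.01. At an unadjusted p under 0.05 there were 3 higher and 3 lower, beside 2.44% and 3.38% of all genes tested. The groups did not overlap for 2 of the 65 genes in the higher and 6 in the lower direction, beside 5.88% and 5.85% of all genes tested.

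Among the 12 ligand genes, Lep itself had 0 to 4 counts per library and was not tested, nor were Il6, Osm and Il27. Cntf, ciliary neurotrophic factor, had a log2 difference of 0.46 (SE 0.23) and Ebi3, a subunit of interleukin-27, one of 0.20 (SE 0.23). Of the 8 tested ligands 5 lay above and 3 below wild type.

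The 9 other receptor genes had 8 fitted differences below wild type and 1 above, with a median of -0.16, and 0 passed. Csf3r, the granulocyte colony-stimulating factor receptor, differed by -0.37 (SE 0.16), Cntfr, the ciliary neurotrophic factor receptor, by -0.16 (SE 0.09) and Il6ra, the interleukin-6 receptor, by -0.16 (SE 0.15). Il31ra, which pairs with OSMR to bind interleukin-31, was chosen after its values were seen. Its near edge, the end of this minus-strand gene, lies 9811 bases beyond the end of Il6st on chromosome 13. Il31ra was at 0.207, 0.121 and 0.209 CPM in the heterozygous and at 0.603, 0.842 and 0.318 CPM in the wild type libraries. Its groups did not overlap, on 10 to 75 counts per library, and the log2 difference was -1.70 (SE 0.43). The edgeR adjusted p was 0.761, and it ran from 0.125 in DESeq2 to 0.9999 over the 15 alternatives in which Il31ra was tested.

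Of the 9 other JAKs and STATs 7 lay below and 2 above wild type, with a median of -0.03, and 0 passed. Jak3, the kinase of common gamma chain receptors, differed by -0.28 (SE 0.14) and Tyk2, a kinase of interferon receptors, by -0.11 (SE 0.11). Jak1, the main kinase partner of gp130, had a log2 difference of -0.01 (SE 0.07); it too was chosen after its values were seen. Of the 19 regulators 12 lay above and 7 below, and 0 passed. Irs2, an insulin receptor substrate, differed by 0.37 (SE 0.17), Ptpn6, a phosphatase of blood cells and microglia, by -0.35 (SE 0.18) and Socs2, which restrains growth hormone signals, by 0.14 (SE 0.10).

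STAT3 target genes did not line up in 1 direction. Of 20 genes 12 lay above and 8 below wild type, with a median of 0.05, and 0 passed edgeR's test. Ccnd1, which encodes cyclin D1, was at 22.6, 21.6 and 15.9 CPM in the heterozygous and at 30.3, 35.7 and 47.7 CPM in the wild type libraries. Its groups did not overlap, and the log2 difference was -0.92 (SE 0.17, edgeR adjusted p = 0.634). DESeq2 called it (adjusted p = 6.19e-05), as did edgeR with every gene of at least 1 count (adjusted p = 0.0472), and the adjusted p was up to 0.9999 over the other fits. Without the 2 libraries of high Xist level the log2 difference of Ccnd1 was -0.58. Junb, an AP-1 factor, had a log2 difference of 0.57 (SE 0.23) and Mcl1, a survival factor, one of 0.23 (SE 0.10). Gfap, the astrocyte filament gene known to follow STAT3 activity in gliosis, was at 133 ± 22.3 in the heterozygous and 139.8 ± 32.1 CPM in the wild type libraries (SD, n = 3 each). Its fitted difference was -0.07 in log2 (SE 0.16), and it was chosen after its values were seen.

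**Figure D4:**
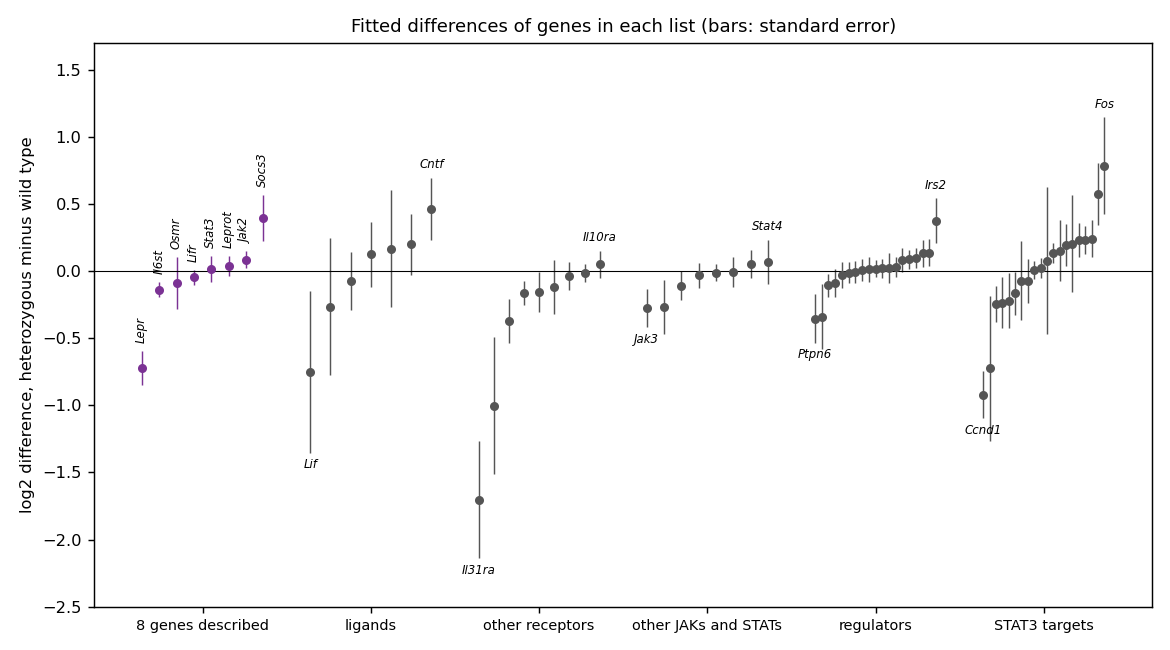
Fitted log2 difference, heterozygous minus wild type (vertical axis), of the 8 genes (purple) and of tested genes of the 5 pathway lists (grey; genes not reported here are left out), ordered by value within each list, with standard errors as bars and the lowest and highest gene shown of each list named. Most values lie near 0. Among those farther out are Lepr at -0.72, Il31ra at -1.70, Ccnd1 at -0.92 and Fos at 0.78, labelled as the highest shown. Other genes of the ligand, receptor and target lists lie beyond Lepr too.

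Markers of several cell types were lower on average in heterozygous libraries, as Lepr was, and others were higher. Within the heterozygous libraries Lepr was highest in replicate 1. By mean log2 CPM, endothelial, excitatory neuron, interneuron and, narrowly, meningeal markers were highest there too. Microglia, astrocyte, choroid plexus, ependymal, oligodendrocyte and striatal markers were lowest there. In summed CPM endothelial markers were highest in heterozygous replicate 3, at 252 CPM beside 244 CPM in replicate 1. The part of these cell types in the Lepr values was not tested. The level of a marker list, as mean log2 CPM relative to the wild type mean, was lower in every heterozygous than in every wild type library for 4 of 12 lists and higher for 0. Among single genes 5.85% of those tested lay apart in the lower direction, a share not comparable with lists of genes that vary together. Of these 4 lists only the pericyte and smooth muscle list also lay apart in summed CPM. Pericyte and smooth muscle markers, with 12 of 12 genes below wild type, were at -0.39 to -0.33 in heterozygous and -0.15 to 0.22 in wild type libraries, and their summed level was 269 to 276 against 283 to 344 CPM. Endothelial markers, 11 of 14 below, were at -0.23 to -0.15 and -0.05 to 0.04, with sums of 235 to 252 and 242 to 269 CPM. Microglia markers, 10 of 10 below, were at -0.21 to -0.08 and -0.03 to 0.05, with sums of 386 to 429.4 and 428.6 to 463 CPM. Astrocyte markers, 8 of 10 below, were at -0.14 to -0.04 and -0.02 to 0.03, with sums of 4356 to 4709 and 4631 to 4757 CPM. No marker of these lists was at 0 counts.

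Meningeal fibroblast markers, 15 of 15 below wild type, differed between wild type libraries as well. Their level was -0.45, -0.57 and -0.45 in the heterozygous and 0.15, 0.40 and -0.56 in the wild type libraries, with sums of 548 to 601 and 574 to 941 CPM and none at 0 counts. Wild type replicate 3 lay within the heterozygous range of this marker level, and its Lepr level was 7.11 CPM. The heterozygous mean of Lepr was 62.2% of that library, beside 63.02% and 57.1% of wild type replicates 1 and 2. That is only 1 library, and its pericyte, endothelial, microglia and astrocyte levels were above those of every heterozygous library. The part of meningeal cells in the Lepr values was not tested. Osmr had its highest value in wild type replicate 2, where the mean log2 levels of meningeal and pericyte markers were highest too. The summed pericyte level was highest in wild type replicate 1, at 343.8 CPM beside 341.4 CPM in replicate 2. The next highest Osmr value, 6.62 CPM, was in heterozygous replicate 3, with meningeal markers at -0.45 and pericyte markers at -0.33. Wild type replicate 1, second in meningeal level at 0.15, had Osmr at 5.19 CPM. The part of these cells in the Osmr values was not tested. Ependymal markers, 7 of 8 above wild type, were at 0.25 to 0.95 in heterozygous and -0.30 to 0.32 in wild type libraries, with sums of 9.26 to 15.8 and 7.27 to 12.4 CPM. Oligodendrocyte markers, 8 of 8 above, were at -0.01 to 0.54 and -0.25 to 0.26, with sums of 10089 to 14782 and 8358 to 11015 CPM, and both lists overlapped between groups with no marker at 0 counts. Choroid plexus markers overlapped between groups, at -0.55 to 0.10 in heterozygous and -0.17 to 0.26 in wild type libraries, and the plexus gene Ttr was at 0.598 to 5.69 CPM. Markers of striatal neurons, 8 of 8 below wild type in the fit, were at -1.50 to 0.75 and -1.70 to 1.98. Their sums were 269 to 562 CPM in heterozygous and 173 to 1255 CPM in wild type libraries. These markers overlapped between groups and varied far more within each genotype than Lepr did.

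**Figure D5:**
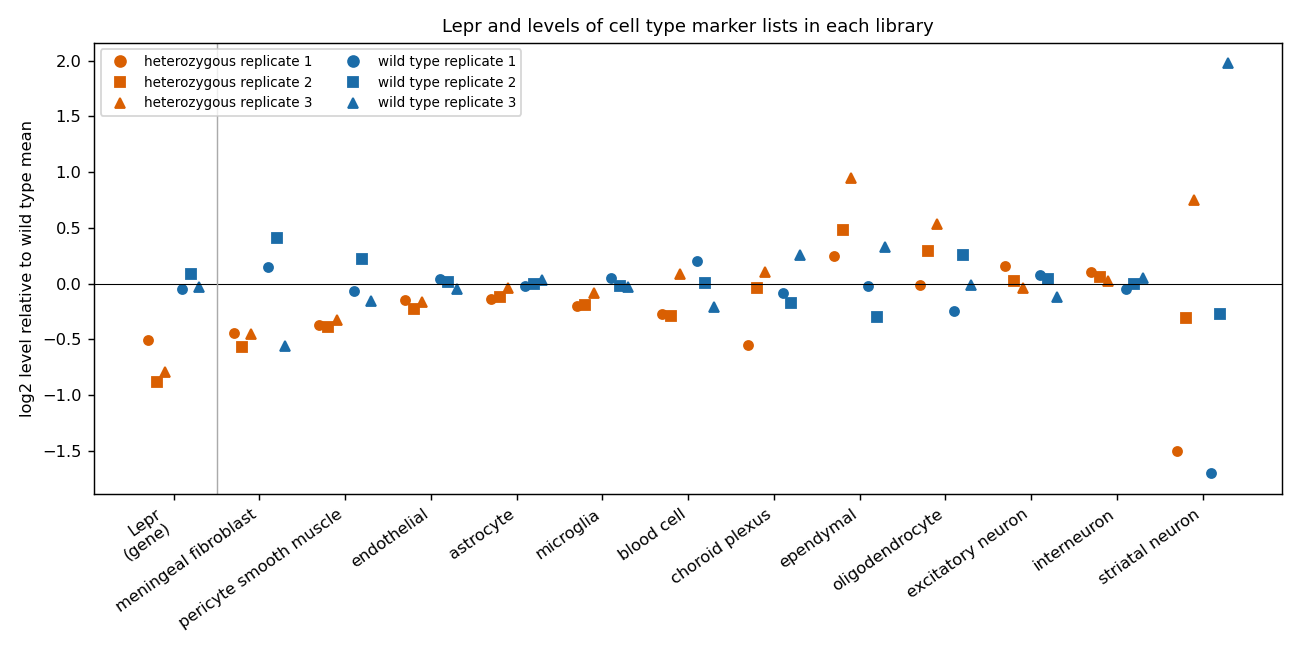
Log2 level relative to the wild type mean (vertical axis) of Lepr and of 12 cell type marker lists in each library, orange for heterozygous and blue for wild type, with a symbol per replicate. Lepr and the pericyte, endothelial, astrocyte and microglia lists have groups that do not overlap; the other 8 lists overlap.

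The patterns of Lepr and Socs3 over the 6 libraries were set against those of 14383 genes with a mean of at least 1 CPM by Pearson's r of log2 CPM, a description in which all genes share the same libraries. Most like Lepr were Rnf225 (r = 0.997), Igfbp2 (0.986), Mrps25 (0.981), Pcdh10 (0.980) and Foxd1 (0.979). Groups lay apart in the lower direction for each of these, beside 5.85% of all genes tested. Choosing them by likeness to Lepr largely fixes that in advance. Their size of difference was not alike: the log2 difference was -0.77 (SE 0.11) for Igfbp2, whose product binds insulin-like growth factors, and -0.71 (SE 0.19) for the forkhead factor Foxd1, but -0.08 (SE 0.18) for Rnf225 and -0.08 (SE 0.05) for Mrps25. Among the other 7 genes Lifr (r = 0.870, rank 194) and Il6st (0.839, rank 287) were most like Lepr, while its neighbour Leprot was at -0.283.

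Most like Socs3 were Dnttip2 (r = 0.998), Ier5 (0.995), Egr3 (0.995), Lemd3 (0.993) and Crcp (0.991). Ier5 and Egr3 belong to the immediate early genes that neurons switch on within minutes of activity. Both had their 2 highest values in heterozygous replicates 1 and 2, as Socs3 did, which choice by likeness to Socs3 largely fixes. Egr3 was at 184, 181 and 101 CPM in the heterozygous and at 116, 98.2 and 95.2 CPM in the wild type libraries. Jak2 was the closest of the other 7 genes to Socs3 (r = 0.856, rank 415), and Lepr was at -0.596. With library totals in place of scaling factors, 2 of the 5 genes most like Lepr and 2 of the 5 most like Socs3 remained among the first 5.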

How the data were processed

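Cortical RNA was extracted with Trizol and DNase I and sequenced from unstranded polyA libraries (TruSeq v2), per the labels' protocols. Each deposited file gives unnormalized whole-number counts for 1 library. Tools named in the submitters' processing notes are featureCounts, Bowtie2 2.3.4.3, DESeq2 and FastQC, and builds GRCm38.p6 and mm10; the settings, and the treatment of reads with several matches, were not given in the sources used here. All 55450 identifiers matched GENCODE M21, as did 198 of 198 list entries.

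Genes were kept with filterByExpr (minimum count 10, minimum total 15), scaled with TMM and tested by the quasi-likelihood test of edgeR 4.0.16 (R 4.3.3; glmQLFit, glmQLFTest), adjusted by Benjamini-Hochberg over 27939 genes. The test was checked on simulated data. CPM uses effective library sizes, log2 CPM a prior count of 1, and RPKM the union exon length. Genotype came from the labels; replicate numbers follow record order. A floor of 3 counts is 0.0326 to 0.0364 CPM, counting error only. Alternatives were other scalings, filters, tools (DESeq2 1.42.0, limma 3.58.1) and left-out libraries; Xist class as a covariate was added after seeing the data.

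Members and lists were chosen with earlier results of these data known. Pathway genes were named by smallest unadjusted p (3 a list, mean CPM of at least 1), and the 5 genes most like Lepr and Socs3 by r, predicted models left out. Il31ra, Jak1, Gfap and Fos were named after their values were seen. Of the 2 most abundant genes of each marker list, only those a result touches are named. Protein motifs were not analysed here. Some genes that the naming rule selects are not reported here, though list counts include them.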

Additional observations from a re-analysis of the deposited data

How the results depend on the processing

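Genes called between genotypes, 0 higher and 0 lower as reported, were 16 higher and 46 lower with DESeq2, 1 and 5 with every gene of at least 1 count, and 1 and 1 in limma-voom with quality weights; leaving out 1 library gave 0 higher and from 0 to 2 lower, the 2 without wild type replicate 2. Pathway genes called lower, 0 as reported, were 1 with DESeq2 and 1 with every gene of at least 1 count, Ccnd1 in both, and the cause was not tested. The log2 differences of the 8 genes moved by less than 1 SD between replicates in all 16 alternatives. Osmr was above 0 in 1 alternative (0.17 without wild type replicate 2). Stat3 was below 0 in 4 (down to -0.05) and Leprot below 0 in 2 (down to -0.03). Lepr, Il6st, Lifr, Jak2 and Socs3 kept their sign in all, which groups that do not overlap largely fixed for Lepr and Il6st. Per base of the longest transcript, which is shorter than the union of exons, the level was 4.38 RPKM for Stat3, 9.27 for Il6st, 1.06 for Osmr and 5.15 for Lifr. Of the 5 genes most like Lepr or Socs3, 2 and 2 remained with library totals and 5 and 5 with a prior count of 5. Marker list levels moved by less than 1 SD between replicates under either alternative. No paired analysis was possible because the labels give no replicate numbers that groups share. Lepr, Socs3 and Osmr rest on 228 to 710 counts per library.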
